A study of Mus musculus with 6 samples.

Results

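The genes described here make, take up, store and export cholesterol in liver. They are 28 named genes: 4 sterol regulators, 17 enzymes of cholesterol synthesis, 4 genes of uptake, transport and storage, and 3 exporters. They were found by symbol in a deposited table of 16426 genes, and all 28 were present and tested. The list does not hold every enzyme or receptor of the pathway.

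Cholesterol is built from acetyl-CoA through mevalonate, the isoprenoid farnesyl diphosphate, squalene and lanosterol. The liver both makes it and clears it, by taking up lipoproteins, by esterification for storage and by export into bile and onto high-density lipoprotein. When sterols are scarce, the membrane-bound transcription factor SREBP2, encoded by Srebf2, is escorted by SCAP from the endoplasmic reticulum, released by proteases and turned on its target genes, most of which are synthesis enzymes. INSIG proteins hold SCAP back when sterols are plentiful. Oxysterols activate the LXR receptors, which turn on export genes and Mylip.

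Bulk RNA sequencing profiled 6 liver samples of male mice, strain C57/BL. The labels name 3 samples of normal mice, given saline, and 3 of mice given 20% carbon tetrachloride (CCl4) for 10 weeks. CCl4 is a liver toxin used to induce fibrosis. The age of the mice is not given, and a group that also received didymin is not among the 6 labelled samples used here. The authors' deposited table compares 3 libraries headed ly_A with 3 headed ly_B, and neither name matches the label of a sample. Whether and how these sets correspond to normal and CCl4-treated liver is therefore not stated, and no difference below is stated as an effect of CCl4. The columns of single libraries could not be tied to a labelled sample and were not used, so no level, replicate spread or depth is given. For the same reason the labelled tissue was not checked against the levels of liver markers. Each value is the log2 fold change of the authors' deposited table, positive where ly_A is higher, and a gene is called at a deposited adjusted p under 0.05. The p-values judge each difference against the spread between the libraries of each set. The labels do not say how these libraries relate to separate animals beyond a replicate number.

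The cholesterol genes were called in both directions, and the called enzymes of one pathway were split between the sets. In the authors' deposited table, 8 of the 28 genes were higher in ly_A (28.6%), against 18.1% of the 14114 genes tested, and 4 were higher in ly_B (14.3%), against 17.7%. Together 12 were called (42.9%), against a background of 35.8%. Tm7sf2, Nsdhl, Ebp, Pmvk, Insig2, Mylip, Soat2 and Abcg5 were the genes higher in ly_A, and Mvd, Abca1, Sqle and Lss those higher in ly_B in the authors' deposited table. The differences were moderate: the median size over the 28 genes, without sign, was 0.60 on the log2 scale, against 0.59 over all genes tested in the authors' deposited table. The signed median was 0.25, against 0.07 over all genes tested in the authors' deposited table. Of the 28 genes 20 lay above 0, and 18 lay above the median of all genes tested. No member that was called had a size below 0.78, and no member that was not called had a size above 0.67 in the authors' deposited table.

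**Figure D1:**
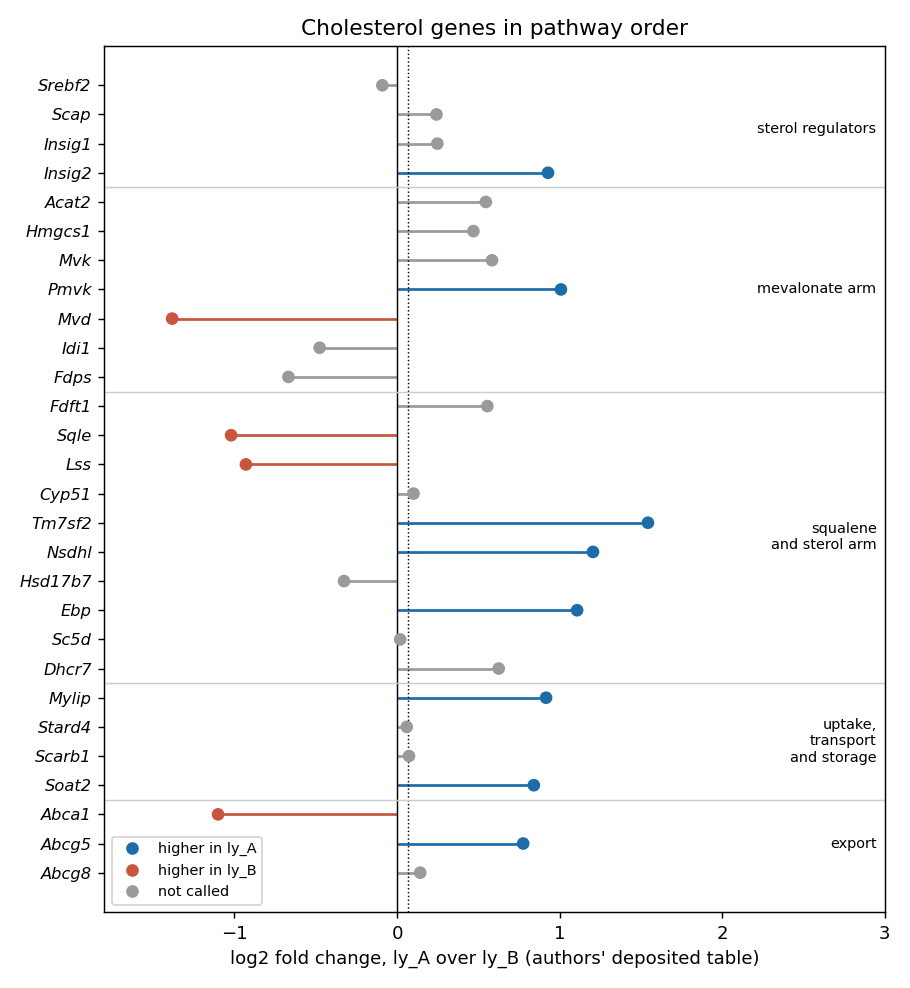
Log2 fold change of ly_A over ly_B for the 28 cholesterol genes, one line per gene, from the regulators and the first enzyme at the top to the exporters at the bottom. Blue genes were called higher in ly_A, red genes higher in ly_B and grey genes were not called at an adjusted p under 0.05. The dotted line marks the median of all genes tested, 0.07. The red enzymes Mvd, Sqle and Lss lie above the blue enzymes Tm7sf2, Nsdhl and Ebp in the order of the pathway, while the blue enzyme Pmvk lies above all of them. No error bars are drawn because the table holds no standard errors.

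Promoter sequences are shown first, because most of these genes carry a shared element near their start in spite of the split in direction. RefSeq promoters on build GRCm38.p6, each running from 250 bases before to 50 bases after the gene start, were found by symbol for 22 of the 28 genes. Fdps, Fdft1, Sqle, Stard4, Scarb1 and Soat2 had no entry. The expression files rest on another build, mm9, so these positions apply to the sequences alone. The sequences searched for were CCAAT, the core of the site bound by NF-Y, a known partner of SREBP2, and TCACNCCAC, a strict form of the sterol regulatory element (SRE) bound by SREBP2 itself. Both strands were searched, and no match of one motif overlapped a match of the other in these genes. The pieces below end at the base before the gene start, on the strand of the gene, with motif matches in capitals (ATTGG is CCAAT on the other strand). They show Mvd, Lss, Tm7sf2, Nsdhl and Ebp, called enzymes that went in opposite directions, and Hmgcs1, which held the SRE-like match. Pmvk, a called enzyme higher in ly_A that also held a CCAAT match, is not shown.

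Mvd, higher in ly_B, chr8:122443423-122443492, minus strand: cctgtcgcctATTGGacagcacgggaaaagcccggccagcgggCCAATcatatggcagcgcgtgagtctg
Lss, higher in ly_B, chr10:76531535-76531604, plus strand: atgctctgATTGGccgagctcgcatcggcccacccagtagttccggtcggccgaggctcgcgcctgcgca
Tm7sf2, higher in ly_A, chr19:6067851-6067920, minus strand: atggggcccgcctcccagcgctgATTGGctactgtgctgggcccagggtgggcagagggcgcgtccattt
Nsdhl, higher in ly_A, chrX:72918401-72918520, plus strand: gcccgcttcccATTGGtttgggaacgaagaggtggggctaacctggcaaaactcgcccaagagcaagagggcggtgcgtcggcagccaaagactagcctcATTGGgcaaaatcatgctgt
Ebp, higher in ly_A, chrX:8193513-8193582, minus strand: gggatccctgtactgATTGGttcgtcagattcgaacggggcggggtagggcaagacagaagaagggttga
Hmgcs1, not called, chr13:119690201-119690350, plus strand: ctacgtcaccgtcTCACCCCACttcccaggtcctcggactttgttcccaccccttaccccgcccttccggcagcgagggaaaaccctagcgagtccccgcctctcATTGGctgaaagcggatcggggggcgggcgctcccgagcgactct

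A CCAAT match stood in 19 of the 22 genes with a promoter (86.4%), against 42.6% of 11006 tested genes with a promoter and 41.1% of all 27025 genes in the promoter table. By call, it stood in 7 of 7 genes higher in ly_A, in 2 of 3 higher in ly_B and in 10 of 12 that were not called. With only the bases before the start, it stood in 6 of 7, 2 of 3 and 10 of 12, because the match of Abcg5 begins at the start base. The motif was thus present on both sides of the split, for example in Mvd and in Ebp, with 2 matches each. Mvk held 5 matches, Hmgcs1 and Nsdhl 4 each, and 11 of the 22 genes had at least 2 in 1 promoter. No CCAAT was found in the windows of Scap, Acat2 and Abca1. The SRE-like motif was found in Hmgcs1 alone, 1 of the 22 genes (4.55%), against 1.44% of the tested genes with a promoter. The 95% interval of the 4.55% ran from 0.12% to 22.84% and holds 1.44%. A match is a run of letters and no evidence of binding in these livers, and the strict SRE form leaves out the degenerate sites that SREBP2 also binds.

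**Figure D2:**
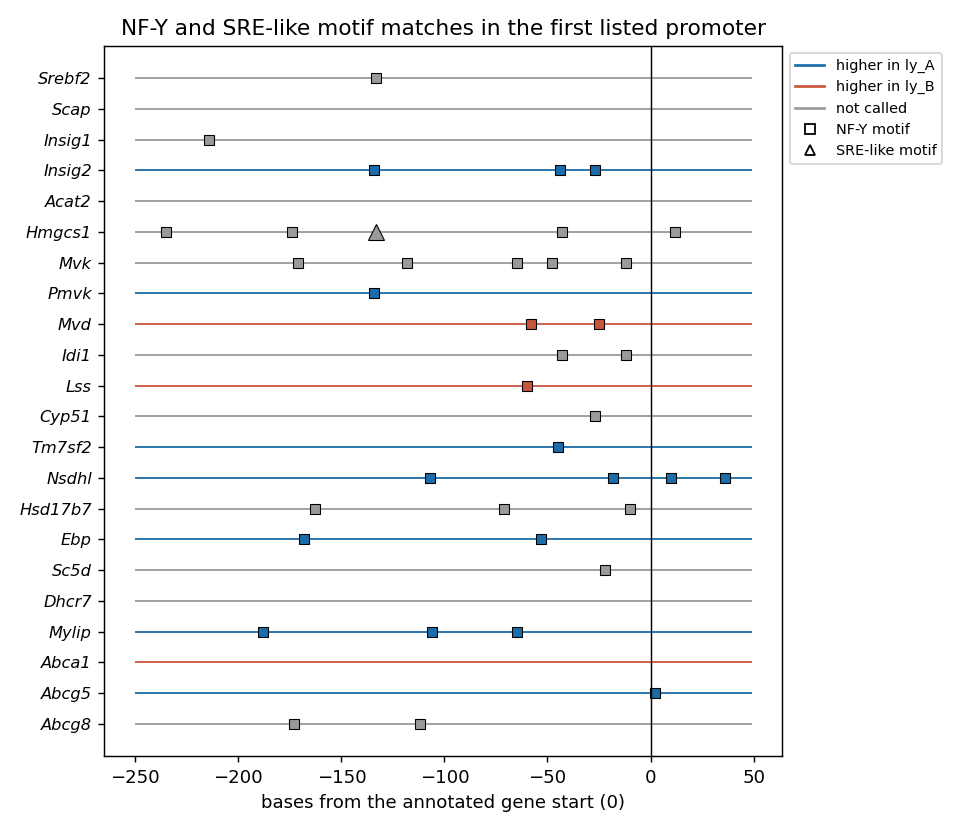
Matches to the NF-Y motif (squares) and the SRE-like motif (triangle) in the first listed RefSeq promoter of the 22 cholesterol genes that have one. The horizontal axis gives bases from the annotated start, and line colours give the call of the gene in the authors' deposited table. Blue, red and grey lines all carry squares, and the triangle stands in Hmgcs1. For Dhcr7 the matches stood in another of its listed promoters.

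Of the 4 sterol regulators, 1 was called (25.0%, against 35.8% of all genes tested). Insig2, which encodes a protein that retains SCAP and SREBP2 in the endoplasmic reticulum, was 1.90-fold higher in ly_A in the authors' deposited table (log2 fold change 0.93, adjusted p = 0.00694). Its paralog Insig1, itself a target gene of SREBP2, stood at 0.25 with an adjusted p of 0.805 in the authors' deposited table. Srebf2, the transcription factor, stood at -0.09 (adjusted p = 0.78) and its escort Scap at 0.24 (adjusted p = 0.316) in the authors' deposited table. Thus the transcripts of the factor and its escort did not pass the test, and of the paired retention proteins Insig2 alone did. Whether Insig2 and Insig1 differ from each other was not tested.

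Of the 7 enzymes from acetyl-CoA to farnesyl diphosphate, 1 was higher in each set, at consecutive steps. Each share was 14.3%, below the 18.1% and 17.7% of all genes tested that were higher in ly_A and ly_B. Acat2, the cytosolic thiolase that joins acetyl-CoA units, stood at 0.55 in the authors' deposited table and did not pass (adjusted p = 0.0843). Hmgcs1, the cytosolic HMG-CoA synthase, stood at 0.47 (adjusted p = 0.283) and mevalonate kinase, Mvk, at 0.58 (adjusted p = 0.244) in the authors' deposited table. Pmvk, the phosphomevalonate kinase of the next step, was 2.01-fold higher in ly_A in the authors' deposited table (log2 fold change 1.01, adjusted p = 0.000669). Mvd, the decarboxylase that acts on the product of Pmvk, was 2.61-fold higher in ly_B in the authors' deposited table (log2 fold change -1.38, adjusted p = 0.000953). The values therefore changed sign between a kinase and the enzyme that follows it. Idi1, the isomerase of isopentenyl diphosphate, stood at -0.48 with an adjusted p of 0.59 in the authors' deposited table. Fdps, the farnesyl diphosphate synthase, stood at -0.67 with an adjusted p of 0.719 in the authors' deposited table, the largest size among the members that were not called.

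Some of these values are uncertain because genes share sequence. Acat2 has a near copy on the same chromosome, Acat3, which was 2.03-fold higher in ly_A in the authors' deposited table (adjusted p = 3.47e-05), and reads may be split between them. In the GENCODE M21 annotation Fdps shares 1124 exon bases with the gene model Gm43738 on the same strand, whose row was not tested. Tm7sf2 shares 532 exon bases with Vps51 on the same strand, and Vps51 stood at -0.26 (adjusted p = 0.813) in the authors' deposited table. Fdft1 overlaps the cathepsin gene Ctsb by 774 exon bases on the opposite strand, and Ctsb stood at 0.09 (adjusted p = 0.78) in the authors' deposited table. Cyp51, Hmgcs1, Idi1, Lss and Scap also overlap other genes on the opposite strand. How the authors treated shared or antisense reads is not given in the sources used here.

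Of the 10 enzymes from squalene to cholesterol, 3 were higher in ly_A and 2 in ly_B in the authors' deposited table. Over all genes tested, 18.1% were higher in ly_A and 17.7% in ly_B. The share of this arm that was higher in ly_B was thus close to that of all genes tested. Within this arm the called enzymes up to lanosterol and those after it went in opposite directions. Fdft1, the squalene synthase that commits farnesyl diphosphate to sterols, stood at 0.56 and did not pass (adjusted p = 0.149) in the authors' deposited table. Sqle, the squalene epoxidase and a rate-limiting step, was 2.03-fold higher in ly_B in the authors' deposited table (log2 fold change -1.02, adjusted p = 0.0117). Lss, the cyclase that closes the rings to give lanosterol, was 1.90-fold higher in ly_B in the authors' deposited table (log2 fold change -0.93, adjusted p = 0.0106). The consecutive steps of epoxidation and cyclisation thus shared a direction, which is also that of Mvd. The calls of Sqle and Lss were the ones nearest to the threshold among the genes higher in ly_B. Neither gene was called when an adjusted p under 0.01 was required.

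Beyond lanosterol the called enzymes were higher in ly_A. Cyp51, the lanosterol demethylase, stood at 0.10 with an adjusted p of 0.789 in the authors' deposited table. Tm7sf2, the sterol C14-reductase that acts next, was 2.91-fold higher in ly_A and had the smallest p of the 28 genes, rank 297 of the 14114 tested in the authors' deposited table (log2 fold change 1.54, adjusted p = 2.03e-10). Nsdhl, the dehydrogenase that removes the C4 carboxyl group, was 2.31-fold higher in ly_A in the authors' deposited table (log2 fold change 1.21, adjusted p = 0.00241). Hsd17b7, the ketosteroid reductase that works with Nsdhl in C4 demethylation, stood at -0.33 and did not pass (adjusted p = 0.374) in the authors' deposited table. Ebp, the isomerase that shifts the sterol double bond, was 2.15-fold higher in ly_A in the authors' deposited table (log2 fold change 1.11, adjusted p = 8.37e-08).

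The last enzymes of the pathway were not called. Sc5d, the desaturase after Ebp, stood at 0.02 with an adjusted p of 0.958 in the authors' deposited table. Dhcr7, the reductase that ends one route to cholesterol, stood at 0.63 and just missed the threshold with an adjusted p of 0.0608 in the authors' deposited table. In this arm neither set held the higher value throughout, and 5 of the 10 enzymes did not pass. The grouping of called enzymes before and after lanosterol was seen in the values and not set beforehand, Pmvk in the mevalonate arm goes against it, and the difference between those enzymes was not tested.

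**Figure D3:**
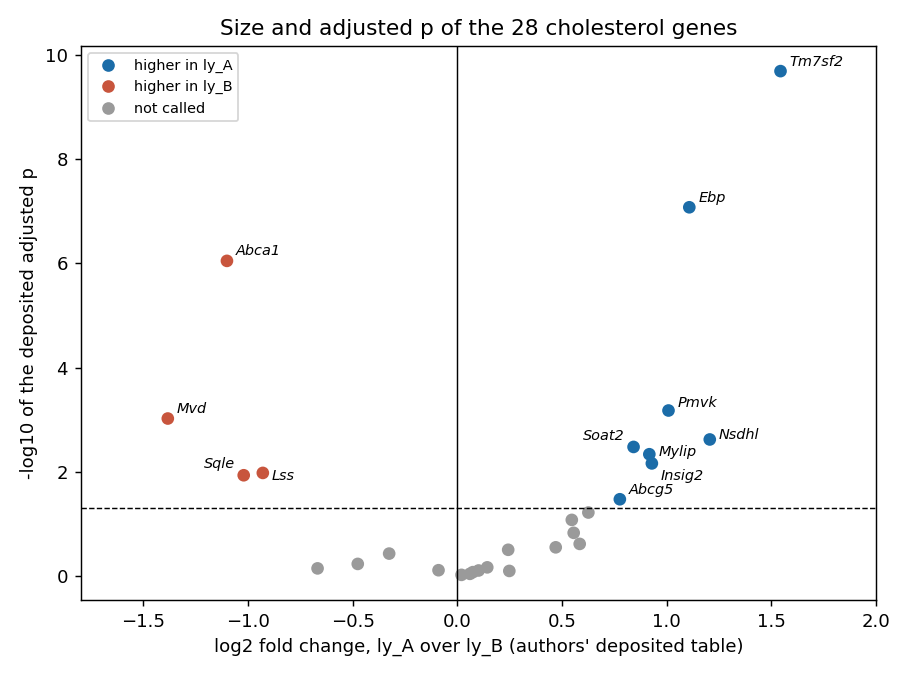
Log2 fold change (ly_A over ly_B, horizontal) against the negative log10 of the adjusted p (vertical) of the 28 cholesterol genes in the authors' deposited table. The dashed line marks an adjusted p of 0.05, and the 12 called genes are named. Tm7sf2, Ebp and Abca1 stand far above the line, while Abcg5, Sqle and Lss lie close to it.

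Among the 4 genes of uptake, transport and storage, 2 were higher in ly_A and 0 in ly_B in the authors' deposited table. The shares over all genes tested were 18.1% for ly_A and 17.7% for ly_B. These 2 called genes give no direction for uptake, since Mylip acts against lipoprotein receptors and Soat2 acts in storage. Mylip, the ubiquitin ligase that targets lipoprotein receptors for degradation and a target of LXR, was 1.89-fold higher in ly_A in the authors' deposited table (log2 fold change 0.92, adjusted p = 0.00462). Soat2, which esterifies cholesterol for storage and for lipoprotein assembly in hepatocytes, was 1.79-fold higher in ly_A in the authors' deposited table (log2 fold change 0.84, adjusted p = 0.00335). Scarb1, the receptor for selective uptake from high-density lipoprotein, stood at 0.07 (adjusted p = 0.849) in the authors' deposited table. Stard4, a soluble sterol carrier and SREBP2 target, stood at 0.06 (adjusted p = 0.915) in the authors' deposited table. These were among the smallest differences of the list, and the p-values do not show that the levels were equal.

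The exporters were split. Of the 3, 1 was higher in each set (33.3%, against 18.1% for ly_A and 17.7% for ly_B over all genes tested). Abca1, which loads cholesterol onto apolipoprotein A-I in hepatocytes and macrophages, was 2.15-fold higher in ly_B in the authors' deposited table (log2 fold change -1.10, adjusted p = 8.95e-07). Abcg5 and Abcg8 encode the partner proteins of one transporter that secretes sterols into bile. Abcg5 was 1.71-fold higher in ly_A in the authors' deposited table (log2 fold change 0.78, adjusted p = 0.0338). This adjusted p was the highest among the called cholesterol genes. Abcg5 was not called when an adjusted p under 0.01 was required. Abcg8 stood at 0.14 with an adjusted p of 0.687 in the authors' deposited table. Abca1, Mylip, Abcg5 and Abcg8 are all known LXR targets, and their values in the authors' deposited table ran from -1.10 to 0.92.

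Abcg5 and Abcg8 lie head to head, and the stretch between their RefSeq starts is shown because both genes are read outward from it. It is 109 bases long on GRCm38.p6, is printed on the strand of Abcg8 and holds no match to either motif. The CCAAT matches of Abcg8 lie at and beyond the start of Abcg5. The nearer match is the same 5 bases as the match of Abcg5, so a single site was counted for both genes. In GENCODE M21 the exons of the pair overlap by 82 bases on opposite strands, so reads there can be told apart only by strand.

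Abcg5 to Abcg8, chr17:84683012-84683120, plus strand: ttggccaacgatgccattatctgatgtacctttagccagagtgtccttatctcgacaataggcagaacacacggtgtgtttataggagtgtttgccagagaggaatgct

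Other genes of the pathway were described from lists of related genes, and from each the called genes with the largest sizes are named, with a few named after their values were seen. Shares are read against the 18.1% of all genes tested that were higher in ly_A and the 17.7% that were higher in ly_B. Of 15 tested genes that sense sterols and process SREBP, 1 was higher in ly_A (6.67%) and 5 in ly_B (33.3%) in the authors' deposited table, with a median of -0.39. Erlin1, which restrains SREBP in the endoplasmic reticulum, stood at -0.95 and the ubiquitin ligase Rnf145 at -0.77 in the authors' deposited table (highest adjusted p = 0.000904). The gene higher in ly_A, named after its value was seen, was Nr1h3, which encodes LXR-alpha, at 0.57 (adjusted p = 0.0163) in the authors' deposited table. Of 11 other genes of sterol synthesis, 2 were higher in each set (18.2% each) in the authors' deposited table, a share close to that of all genes tested. Erg28, a scaffold of the C4 demethylation complex in which Nsdhl and Hsd17b7 act, stood at 1.14 (adjusted p = 2.73e-05) and the electron carrier Cyb5a at 0.73 (adjusted p = 0.00765) in the authors' deposited table. Towards ly_B, Cyb5b, the relative of Cyb5a on mitochondria and also named after its value was seen, stood at -0.55 (adjusted p = 0.00594) in the authors' deposited table.

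Genes of cholesterol ester storage, hydrolysis and export that passed were mostly higher in ly_A. Of 17 tested, 8 were higher in ly_A (47.1%, against 18.1% of all genes tested) and 2 in ly_B (11.8%, against 17.7%) in the authors' deposited table, with a median of 0.58. Pltp, the phospholipid transfer protein, stood at 1.92, the lipid droplet protein Plin5 at 1.58 and the hormone-sensitive lipase Lipe at 1.30 in the authors' deposited table (highest adjusted p = 2.07e-05). Of 25 tested genes of lipoprotein uptake and intracellular cholesterol transport, 6 were higher in ly_A (24.0%) and 4 in ly_B (16.0%) in the authors' deposited table, near the shares of all genes tested. Among them stood the lipoprotein receptor Vldlr at 1.68 and Commd1 at 1.25 in the authors' deposited table (highest adjusted p = 0.00743). The sterol-binding carrier Osbp, named after its value was seen, stood at -1.19 (adjusted p = 2.77e-07) in the authors' deposited table. The median of this list was 0.17.

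The list of SREBP2 targets other than the 28 genes also holds genes of fatty acid metabolism. Of 18 tested, 2 were higher in ly_A (11.1%) and 4 in ly_B (22.2%) in the authors' deposited table, with a median of 0.13. Together 33.3% were called, near the 35.8% of all genes tested. The acetyl-CoA synthetase Acss2 stood at 1.57 and the fatty acid desaturase Fads2 at -1.32 in the authors' deposited table (highest adjusted p = 0.000898). Of 16 other LXR targets, 7 were higher in ly_A (43.8%, against 18.1% of all genes tested) and 1 in ly_B (6.25%, against 17.7%) in the authors' deposited table, with a median of 0.43. Mlxipl, the glucose-responsive factor ChREBP, and Cyp7a1, which starts the classical route from cholesterol to bile acids, stood at 2.64 each and Pltp at 1.92 in the authors' deposited table (highest adjusted p = 7.64e-05). Rnf145 was the LXR target higher in ly_B. The lists share genes with each other, and their medians and shares describe them without a test.

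**Figure D4:**
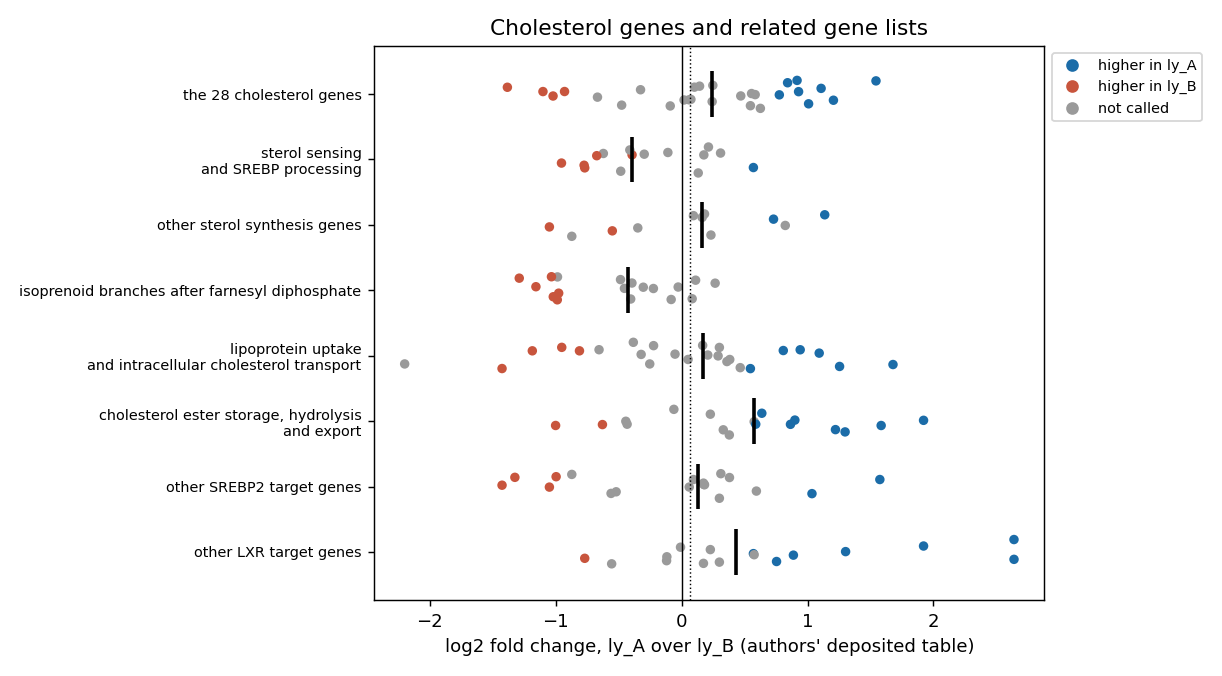
Log2 fold change of ly_A over ly_B for each tested gene of the 28 cholesterol genes and of 7 related lists, with colours by call and vertical jitter for legibility. Black bars mark list medians and the dotted line the median of all genes tested. Bars of sterol sensing genes (-0.39) and isoprenoid branch genes (-0.43) lie left of 0, and that of storage, hydrolysis and export genes (0.58) lies farthest right.

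In bulk liver, fewer cells of a type and less RNA per cell cannot be told apart, and markers of some other cell types differed between the sets as well. Of 13 endothelial markers 12 were higher in ly_A (92.3%, against 18.1% of all genes tested) and 0 in ly_B (against 17.7%) in the authors' deposited table, with a median of 1.19. Of 12 tested markers of T, B and NK cells 7 were higher in ly_A (58.3%) and 0 in ly_B in the authors' deposited table, with a median of 1.71. Macrophage markers were split, 5 of 14 higher in ly_A (35.7%) and 3 in ly_B (21.4%), from Timd4 at 3.04 to Gpnmb at -4.93 in the authors' deposited table. Of 16 hepatocyte markers 6 were higher in ly_A (37.5%) and 3 in ly_B (18.8%) in the authors' deposited table, with a median of 0.63. Fewer markers of stellate cells (2 of 13, or 15.4%, each higher in ly_B) and of cholangiocytes (1 of 8, or 12.5%, higher in ly_B) were called in the authors' deposited table than the 35.8% of all genes tested. The part of these shifts in the values of the 28 genes, of Abca1 in particular, which macrophages also express, was not tested.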

How the data were processed

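The labels name bulk RNA of 6 mouse liver samples, 3 normal and 3 from mice given CCl4. The values come from 1 deposited table with a row per gene symbol, whose 2 sets match no labelled sample. Trizol extraction and NEBNext library preparation are stated per the labels' protocols. DESeq2 (no version) and build mm9 come from the submitters' processing notes, while aligner, counter and annotation were not given in the sources used here. Per the file headers, the authors deposited a log2 fold change, a p-value and an adjusted p-value for ly_A against ly_B, and these 3 columns were used. The sign was taken as ly_A over ly_B, the order of the table's name. A reading of its first lines by eye fitted that order, but the sign was not checked over all rows. Another 18 columns besides the gene symbol were not used. Those of single libraries match no labelled sample, so library depth, replicate spread and tests across libraries were not examined here.

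Of 16426 rows, 2312 carried an adjusted p of 1. Recomputing the Benjamini-Hochberg values from the p-values of the remaining 14114 gave the deposited ones (relative difference at most 9.47e-13), so these 14114 were taken as the genes tested. Calls used an adjusted p under 0.05. Alternatives were a threshold of 0.01, an additional 2-fold difference, adjustment over all rows, and subtraction of the median of all tested genes. Every one of the 28 genes is named, and from each other list up to 3 called genes with the largest sizes; Nr1h3, Cyb5b, Osbp and, in the isoprenoid list, Nus1, Srd5a3, Chm, Pdss1, Pdss2 and Coq2 were named after their values were seen. A few genes picked by this rule are left unreported, without replacement. The members and lists were chosen with earlier results of these data known. Promoters came from RefSeq (GRCm38.p6) by symbol, gene overlaps from GENCODE M21 (GRCm38), used for neighbours only. A gene counted as having a motif when any of its listed promoters did. Scripts used Python 3.11.15, pandas 2.3.3 and SciPy 1.17.1, and the adjustment and the motif search were tested on simulated data.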

Additional observations from a re-analysis of the deposited data

How the results depend on the processing

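The counts rest on the authors' own model, and replicate spread and depth were not examined, since the single-library columns match no labelled sample and were left unused by choice. No library was left out for the same reason. No paired analysis was possible because the columns used hold only the finished comparison, without replicates. With an adjusted p under 0.01, 7 of the 28 genes were higher in ly_A and 2 in ly_B: Abcg5, Sqle and Lss lost their calls. At that threshold 1736 of the 14114 genes tested were higher in ly_A and 1790 in ly_B. When a 2-fold difference was also required, 4 were higher in ly_A and 3 in ly_B, and over all genes 1542 were higher in ly_A and 1108 in ly_B, against 2554 and 2499 without it. Adjustment over all rows left the 28 genes at 8 and 4 calls, and gave 2460 and 2404 over all genes. Subtraction of the median of all tested genes could change no call, since no called member lay that near to 0, and it lowered the median of the 28 genes from 0.25 to 0.18. With only the bases before the gene start, 81.8% of the genes with a promoter held CCAAT in place of 86.4%.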

Other observations

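Farnesyl diphosphate also leaves the sterol pathway for dolichol, ubiquinone and the lipid anchors of proteins, and genes of these branches that passed were all higher in ly_B. Of 18 tested, 6 were higher in ly_B (33.3%, against 17.7% of all genes tested) and 0 in ly_A (against 18.1%) in the authors' deposited table, with a median of -0.43. Pggt1b, a subunit of an enzyme that attaches geranylgeranyl anchors, stood at -1.29, Icmt, which methylates prenylated proteins, at -1.16 and Zmpste24, the protease that trims them, at -1.03 in the authors' deposited table (highest adjusted p = 0.000958). The other called genes, named after their values were seen, were Nus1 and Srd5a3 of dolichol synthesis at -1.02 and -0.98 and the Rab escort protein Chm at -0.99 in the authors' deposited table (highest adjusted p = 0.00059). Genes of ubiquinone synthesis, Pdss1, Pdss2 and Coq2, also chosen after their values were seen, stood at -0.40, -0.08 and 0.27 and did not pass (smallest adjusted p = 0.281) in the authors' deposited table. The lists were described without a test, and no explanation was tested.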
